A study of Mus musculus with 4 samples.

Results

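Interferon-stimulated genes, the genes that cells switch on after contact with an interferon, were taken from a list of 36 mouse genes by gene symbol. The rule uses no measured value, but the list was drawn up with earlier results of these data known. Of these 36 genes, 32 had at least 1 probe set of their own on the arrays, out of 12394 genes measured in all. Isg15 was present only on a probe set that the annotation gives to more than 1 gene, the annotation used named no probe set for Ifi44, Xaf1 or Samd9l, and these 4 genes are not described further. The study compared Sca-1 knockout mice with wild-type littermates (female, nulliparous, C57BL/6 background, standard chow), where Sca-1 is stem cell antigen-1, a lipid-anchored surface protein by which stem and progenitor cells are often sorted. The 4 groups were mammary tumor of knockout mice, mammary tumor of wild-type mice, mammary gland of knockout mice and mammary gland of wild-type mice, with the glands taken at 6 weeks of age. To induce the tumors, mice had received MP (Depo-Provera, a progestin), 15 mg under the skin, and then DMBA, a chemical carcinogen, as 4 weekly gavages of 1 mg. The group labels of the glands name no treatment, although the labels attach the same protocol to all 4 samples, so whether the glands were treated is not settled. Each group was 1 array hybridised with RNA pooled from 5 mice, so no test was possible and every difference below is a difference between 2 arrays.

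Type I interferons (alpha and beta) bind a receptor that signals through the kinases Jak1 and Tyk2 to a transcription factor complex that holds Stat2 and Irf9. This complex binds a DNA element, the interferon-stimulated response element, whose core is 2 GAAA repeats. Interferon gamma, made by T and NK cells, acts through Jak1 and Jak2 and a DNA element called the gamma-activated sequence, a palindrome of TTC and GAA. The induced proteins sense foreign nucleic acid, block virus entry and replication, and damage the vacuoles of intracellular pathogens, and many are also made at a basal level in tissue that holds leukocytes.

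The promoter stretches of 9 of the genes are shown, all picked because they hold 2 GAAA repeats. They include genes that were past 2-fold between tumor and gland in either or both genotypes, and genes that were not. They are from RefSeq, build GRCm38.p6, 5′ to 3′ on the strand of the gene, ending at or before the annotated start. Capitals mark a GAAA pair (GAAA, any 2 bases, GAAA) on either strand, which on the opposite strand reads as a TTTC pair, and TTCNNNGAA, with overlapping matches run together. The first 3 belong to antiviral effectors that were brighter in tumors.
Bst2, chr8:71537557-71537638, minus strand: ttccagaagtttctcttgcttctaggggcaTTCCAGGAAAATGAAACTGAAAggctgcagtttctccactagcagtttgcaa
Ifit1, chr19:34640755-34640843, plus strand: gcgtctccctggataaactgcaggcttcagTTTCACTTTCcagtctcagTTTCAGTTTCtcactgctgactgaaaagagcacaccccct
Ifit3, chr19:34583343-34583446, plus strand: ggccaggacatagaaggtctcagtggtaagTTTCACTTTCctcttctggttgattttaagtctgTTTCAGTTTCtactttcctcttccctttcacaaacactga
The next 4 belong to GTPases that interferon gamma induces.
Igtp, chr11:58199481-58199555, plus strand: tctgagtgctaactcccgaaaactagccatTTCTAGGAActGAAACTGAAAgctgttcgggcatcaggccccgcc
Irgm1, chr11:48871421-48871480, minus strand: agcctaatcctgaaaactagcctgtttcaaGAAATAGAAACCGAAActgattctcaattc
Gbp2, chr3:142620574-142620643, plus strand: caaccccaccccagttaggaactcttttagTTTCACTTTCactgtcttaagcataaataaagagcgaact
Gbp3, chr3:142559969-142560043, plus strand: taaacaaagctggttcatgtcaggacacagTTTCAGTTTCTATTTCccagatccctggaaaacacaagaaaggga
The last 2 belong to genes that, like Gbp2 and Gbp3, differed by less than 2-fold between tumor and gland.
Rsad2, chr12:26456533-26456602, minus strand: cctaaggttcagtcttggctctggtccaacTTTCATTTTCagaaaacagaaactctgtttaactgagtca
Stat2, chr10:128270248-128270313, plus strand: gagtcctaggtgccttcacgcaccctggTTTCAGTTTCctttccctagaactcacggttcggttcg
Windows of 250 bases before to 50 bases after the start were available for 28 of the 36 genes. There was none for Oas2, Mx1, Mx2, Usp18, Dhx58, Iigp1, Zbp1 and Rtp4. The GAAA pair was found for 14 of the 28 genes and TTCNNNGAA for 8, with both for 4 and neither for 10. Over all genes of the RefSeq table the shares were 3.99% for the GAAA pair and 9.55% for TTCNNNGAA. A match describes these letters only, and no match says only that they are not in the window.

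The signals are linear intensities that had been scaled to a trimmed mean of 500 on each array. A floor was set at the median of all values, a signal of 168, and differences were taken of log2(signal + 27.3), so those of dim genes are understated. In counts, a gene is "higher" or "lower" when the arrays are 2-fold or more apart, a log2 difference of 1. The lower quartile of all signals was 17.9 and 18.5 on the knockout and wild-type tumor arrays, and 44.2 and 34.6 on the knockout and wild-type gland arrays. For beta-actin, the 3′ control probe set over the 5′ one, a sign of RNA integrity, was 1.29 and 1.23 in the knockout and wild-type tumor, and 1.61 and 2.35 in the knockout and wild-type gland. Of 10 luminal epithelial markers, 8 were above the floor on each array, and of 8 measured adipocyte markers 3 were in each tumor and 8 in each gland. The knockout was not checked here, since the probe annotation at hand does not list the Sca-1 gene.

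**Figure D1:**
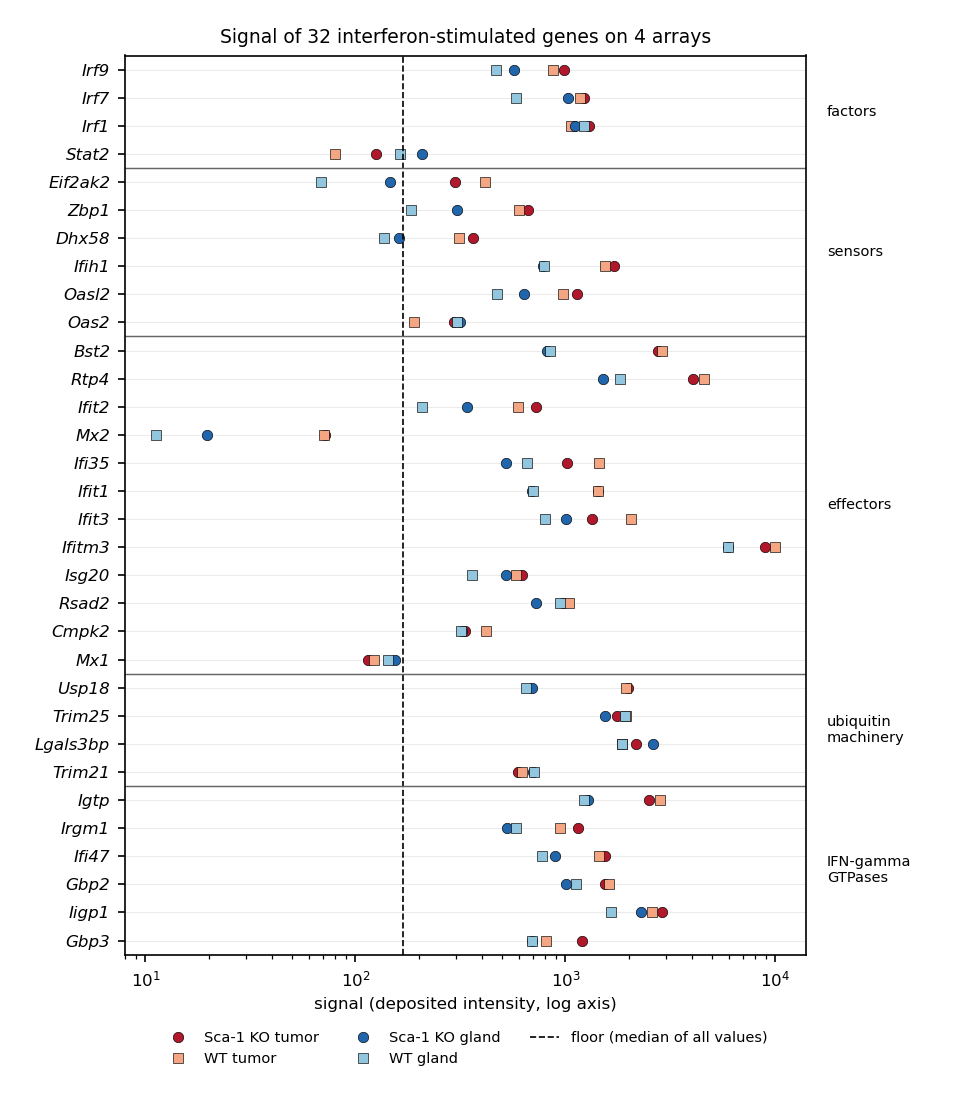
Signal of each of the 32 measured genes (log axis) on the 4 arrays, 1 point per array, grouped by role, with the floor of 168 as a dashed line. The points of Bst2, Rtp4, Usp18 and Ifit1 fall into 2 pairs by tissue, while Mx1 and Mx2 lie below the floor on all arrays.

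The comparison of tumor with gland showed the larger differences. Bst2, Usp18 and Rtp4, all strongly induced by type I interferon, were 2.48 to 3.33-fold brighter in tumor than in gland in both genotypes, and most genes of the list lay in the same direction. None was 2-fold or more dimmer in tumor. Of the 32 genes, 10 were higher in the knockout tumor than in the knockout gland, where 9.36% of all genes measured were higher. In wild type 13 of 32 were higher in tumor, against 9.88% of all genes. Lower genes made up 18.4% of all genes in knockout and 15.7% in wild type, and 0 of the 32 in either.

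The median log2 difference of the 32 genes was 0.76 in knockout and 0.88 in wild type, beside -0.17 and -0.13 over all genes. The difference was positive for 27 of 32 genes in knockout and 26 of 32 in wild type, against 40.1% and 41.9% of all genes. The filter on dim genes left 30 of the 32, of which 9 were higher in knockout and 12 in wild type, beside 12.4% and 12.9% of the 8283 genes that passed it. None of the 30 was lower, beside 17.9% and 16.6% of those genes. Dhx58 and Eif2ak2 passed it through the tumors alone and Stat2 through the knockout gland alone, so the filter itself favoured a difference for these 3 genes. The tumor and gland arrays differ in tissue makeup, and by their group labels in treatment, as well as in the presence of a tumor, the age of the tumor-bearing mice is not given, and these cannot be told apart.

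**Figure D2:**
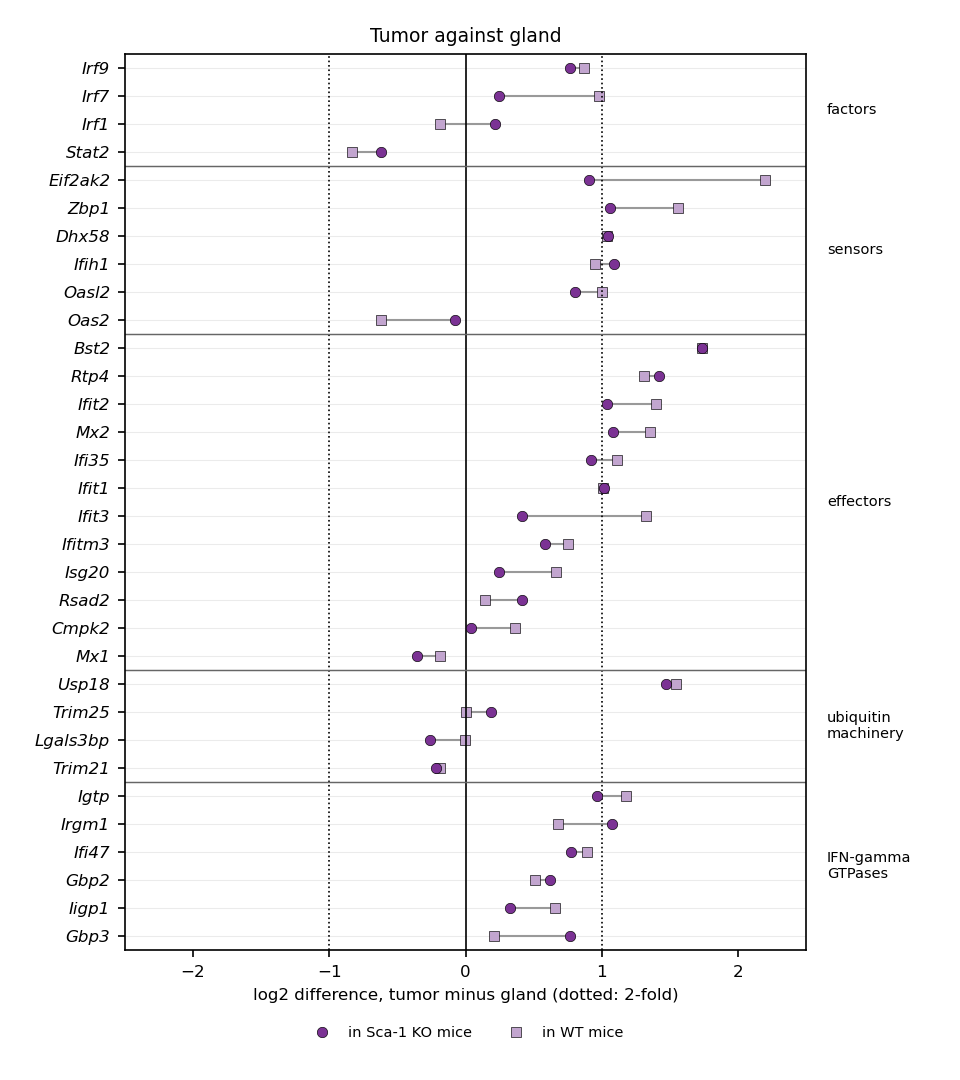
Log2 difference of tumor minus gland for each of the 32 genes in Sca-1 knockout and wild-type mice, joined by a line, with dotted lines at 2-fold. Bst2 reaches 1.73 in knockout and 1.74 in wild type, and Eif2ak2, at 0.91 and 2.20, has the longest line.

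Among the antiviral effectors, Bst2, also called tetherin, which holds budding virus particles at the cell surface, had a signal of 2769 in the knockout tumor, 2887 in the wild-type tumor, 814 in the knockout gland and 848 in the wild-type gland. Both tumors lay far above both glands, by 3.32-fold in knockout and 3.33-fold in wild type. Rtp4, a transmembrane protein that dampens the interferon response and binds viral RNA replication complexes, had signals of 4064 and 4562 in the knockout and wild-type tumor and 1505 and 1822 in the knockout and wild-type gland. Its 2.67-fold and 2.48-fold differences in knockout and wild type were also seen on its dimmer second probe set, with log2 differences of 1.25 and 1.46. Ifi35, which forms a complex with Nmi, had 1012 and 1451 in the knockout and wild-type tumor and 523 and 658 in the knockout and wild-type gland. It was past 2-fold in wild type, at 2.16-fold, and not in knockout, at 1.89-fold.

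The Ifit proteins bind foreign RNA and hinder its translation. Ifit1 had signals of 1436 and 1433 in the knockout and wild-type tumor and 695 and 699 in the knockout and wild-type gland, so that the genotypes were alike to within 1.01-fold in each tissue and tumor against gland was 2.03-fold and 2.01-fold in knockout and wild type. Ifit2 had 726 and 592 in the knockout and wild-type tumor, and 340 and 208 in the knockout and wild-type gland. Tumor was brighter by 2.05-fold in knockout and 2.63-fold in wild type. Ifit3 departed from the other 2 in the knockout tumor. Its signals were 1343 and 2045 in the knockout and wild-type tumor and 1003 and 800 in the knockout and wild-type gland, giving 1.33-fold in knockout and 2.51-fold in wild type.

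The other effectors were less far apart. Ifitm3, a membrane protein that stops viruses from fusing with endosomes, had signals of 8889 and 9998 in the knockout and wild-type tumor and 5917 and 5922 in the knockout and wild-type gland, both tumors above both glands. Isg20, an exonuclease, had 621 and 584 in the knockout and wild-type tumor and 521 and 359 in the knockout and wild-type gland, and the wild-type gland was lowest. Cmpk2, a mitochondrial nucleotide kinase that neighbours Rsad2, had 332 and 420 in the knockout and wild-type tumor and 322 and 320 in the knockout and wild-type gland, with the wild-type tumor alone standing above the rest. The other Cmpk2 probe set was below the floor on all arrays.

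Rsad2, or viperin, which makes a chain-terminating nucleotide, gave no clear picture. Its brightest probe set had 972 and 1043 in the knockout and wild-type tumor and 723 and 944 in the knockout and wild-type gland, a tumor difference of 0.41 and 0.14 in knockout and wild type. The other 2 probe sets gave 0.42 and 0.11 in knockout and 0.77 and 0.78 in wild type, so the probe sets disagreed mainly in wild type. Mx1 and Mx2 are dynamin-like GTPases that block viral replication, and laboratory strains such as C57BL/6 carry a defective Mx1 allele. Mx1 had signals of 115 and 123 in the knockout and wild-type tumor and 155 and 144 in the knockout and wild-type gland, all below the floor. Mx2 had 71.7 and 71.0 in the knockout and wild-type tumor and 19.6 and 11.2 in the knockout and wild-type gland, also below the floor, so its differences past 2-fold compare dim values.

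The sensors of foreign nucleic acid were mostly brighter in tumor. Ifih1 (MDA5), which detects long double-stranded RNA, had signals of 1695 and 1551 in the knockout and wild-type tumor against 781 and 790 in the knockout and wild-type gland. The difference was 2.13-fold in knockout and 1.93-fold in wild type, on either side of the threshold. Dhx58 (LGP2), a related helicase that modulates Ifih1, had 363 and 310 in the knockout and wild-type tumor and 162 and 137 in the knockout and wild-type gland. Its other 2 probe sets never reached the floor. They gave -0.17 and -1.31 in knockout, both the other way, and 0.35 and -1.18 in wild type.

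Zbp1, a sensor of left-handed nucleic acid that can trigger necroptosis, had 666 and 599 in the knockout and wild-type tumor, 306 in the knockout gland and 185 in the wild-type gland. The tumors lay close together and the wild-type gland was lowest, with tumor brighter by 2.08-fold in knockout and 2.95-fold in wild type. Its second probe set gave log2 differences of 0.73 in knockout, under 2-fold, and 1.39 in wild type. Eif2ak2, the kinase PKR that stops translation on binding double-stranded RNA, had 297 and 413 in the knockout and wild-type tumor and 146 and 68.6 in the knockout and wild-type gland. Both glands were below the floor. Its second probe set gave log2 differences of 0.94 in knockout and 1.19 in wild type, against 0.91 and 2.20 on the first, so the large wild-type value was not shared.

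The 2 members of the oligoadenylate synthetase family differed. Oasl2 had 1136 and 976 in the knockout and wild-type tumor and 638 and 473 in the knockout and wild-type gland, a log2 difference of 0.81 in knockout and 1.00 in wild type. Oas2, which makes the oligoadenylates that activate RNase L, had 295 and 189 in the knockout and wild-type tumor and 314 and 305 in the knockout and wild-type gland. The wild-type tumor was dimmest, with a log2 difference from gland of -0.62, against -0.08 in knockout.

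Among the transcription factors, Irf9 and Irf7 were brighter in tumor, and Stat2 was dimmer on the brighter of its probe sets. Irf9, the DNA-binding part of the type I complex, had 987 and 873 in the knockout and wild-type tumor and 570 and 467 in the knockout and wild-type gland, a log2 difference of 0.76 and 0.87 in knockout and wild type. Irf7, the main amplifier of interferon alpha production, had 1230 and 1178 in the knockout and wild-type tumor, 1032 in the knockout gland and 583 in the wild-type gland. The wild-type gland alone was low, so the log2 difference was 0.25 in knockout and 0.98 in wild type.

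Irf1, a factor that interferon gamma induces, had 1294 and 1067 in the knockout and wild-type tumor and 1112 and 1219 in the knockout and wild-type gland, with the tissues overlapping. Stat2 had 126 and 79.9 in the knockout and wild-type tumor and 208 and 164 in the knockout and wild-type gland, all but the knockout gland below the floor. Its second probe set gave -0.63 in knockout but 0.16 in wild type, against -0.62 and -0.83 on the first.

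Of the ubiquitin machinery, Usp18 stood apart from the other 3 measured genes. Usp18, the protease that removes Isg15 and blocks the type I receptor, had 1975 and 1945 in the knockout and wild-type tumor and 694 and 648 in the knockout and wild-type gland, 2.78-fold brighter in tumor in knockout and 2.92-fold in wild type. Trim25, the ubiquitin ligase that activates the RNA sensor RIG-I, had 1765 and 1933 in the knockout and wild-type tumor and 1550 and 1932 in the knockout and wild-type gland. Trim21, an intracellular antibody receptor, had 597 and 620 in the knockout and wild-type tumor and 698 and 710 in the knockout and wild-type gland. Lgals3bp, a secreted glycoprotein, had 2178 and 1854 in the knockout and wild-type tumor and 2622 and 1859 in the knockout and wild-type gland, with the knockout gland brightest. Tumor and gland differed by no more than 0.26 on the log2 scale for these 3 genes. A dimmer probe set of Trim25, however, gave -0.86 in knockout and -1.06 in wild type, past 2-fold lower in the wild-type tumor. The other Trim21 probe set gave -0.65 in knockout and 0.02 in wild type.

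All 6 GTPases induced by interferon gamma were brighter in tumor in both genotypes, most by less than 2-fold. Igtp, a GTPase of the Irg family, had 2513 and 2808 in the knockout and wild-type tumor and 1278 and 1226 in the knockout and wild-type gland, a difference of 1.95-fold in knockout and 2.26-fold in wild type. Irgm1, a regulator of the same family, had 1142 and 942 in the knockout and wild-type tumor and 528 and 579 in the knockout and wild-type gland, or 2.11-fold and 1.60-fold in knockout and wild type. The tumors lay above the glands for both genes, and each was past 2-fold in 1 genotype.

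Ifi47 had 1547 and 1452 in the knockout and wild-type tumor and 894 and 769 in the knockout and wild-type gland, and Iigp1 had 2888 and 2595 in the knockout and wild-type tumor and 2300 and 1640 in the knockout and wild-type gland. Both are further members of the Irg family. The other Iigp1 probe set differed by 0.25 in knockout and 0.13 in wild type, and the other Gbp2 probe set by 0.41 and 0.54. Gbp2 and Gbp3, guanylate-binding proteins that coat and lyse vacuoles, also lay higher in the tumors. Gbp3 had 1193 in the knockout tumor against 805 in the wild-type tumor, with 691 and 694 in the knockout and wild-type gland. Gbp2 had 1551 and 1604 in the knockout and wild-type tumor and 1003 and 1120 in the knockout and wild-type gland. The median log2 difference of the 6 GTPases was 0.77 in knockout and 0.67 in wild type, against 0.75 and 1.06 for the 12 antiviral effectors measured.

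The same genes passed 2-fold in part. Of 10 genes higher in tumor in knockout and 13 in wild type, 8 were common to both, namely Bst2, Dhx58, Ifit1, Ifit2, Mx2, Rtp4, Usp18 and Zbp1. This is 80% of the knockout list and 61.5% of the wild-type list, and the 2 comparisons share no array. Over all genes the shared part was 71.6% of the knockout list and 67.8% of the wild-type list. Stat2, Oas2, Mx1, Trim21 and Lgals3bp were negative in both genotypes. Of these, Mx1 was below the floor on all arrays, and the second probe sets of Stat2 and Trim21 were positive in wild type, at 0.16 and 0.02. By promoter, the 13 measured genes with the GAAA pair had a median of 0.76 in knockout and 0.75 in wild type, and the 11 without it 0.25 and 0.87. Genes with no promoter window are in neither group, among them Dhx58, Mx2, Rtp4, Usp18 and Zbp1 of the 8 shared genes. Over all measured genes the medians were -0.17 and -0.07 for 380 with the pair, and -0.16 and -0.13 for 9508 without it.

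Between genotypes the differences were small. In the tumors, 0 of 32 genes were 2-fold higher and 0 were 2-fold lower in knockout, where 1.84% and 1.8% of all genes were (2.12% and 1.94% of those above the floor). The median log2 difference was 0.04, beside 0.01 over all genes, and 19 of 32 were positive, against 50.9% of all genes. These shares and medians were near those of genes in general. The largest positive differences were those of Oas2 (0.58), Gbp3 (0.55) and Stat2 (0.51), and the largest negative ones those of Ifit3 (-0.60), Ifi35 (-0.51) and Eif2ak2 (-0.44), although the second Eif2ak2 probe set gave 0.07. To gauge measurement noise, probe sets were compared within 2766 genes that had several, and the gap between 2 probe sets of a gene in this difference had a median size of 0.17. Both probe sets were read on the same arrays, so that value holds no variation among animals or between repeat arrays. For tumor against gland the gap was larger, at 0.45 in knockout and 0.49 in wild type.

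In the glands, too, 0 of 32 genes were 2-fold higher and 0 were 2-fold lower in knockout, beside 1.19% and 0.274% of all genes (1.11% and 0.254% of those above the floor). The median was 0.08, against 0.04 over all genes, and under scaling to a common array median, which moved the median of all genes above the floor to -0.23, it was negative, at -0.20. The upper end was longer than the lower. Eif2ak2 differed by 0.85, Irf7 by 0.80, Zbp1 by 0.65, Ifit2 by 0.64 and Isg20 by 0.51, while Rsad2 at -0.37 was the lowest, although its other 2 probe sets gave 0.59 and 0.40. The gap between probe sets of a gene had a median size of 0.24 here. For Eif2ak2 the second probe set gave 0.33, for Zbp1 0.68, and Irf7, Ifit2 and Isg20 had 1 probe set each. Stat2 differed by 0.30 on its brighter and 1.13 on its dimmer probe set.

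**Figure D3:**
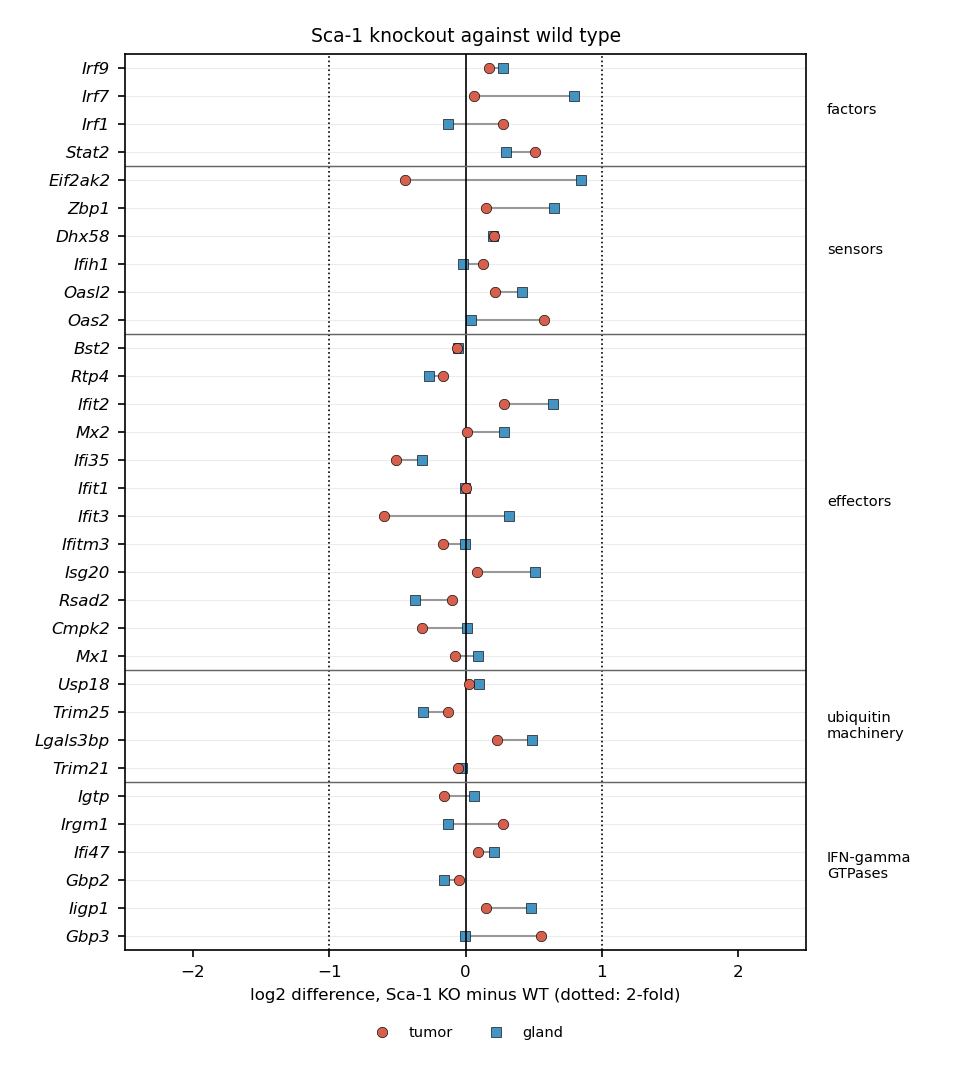
Log2 difference of Sca-1 knockout minus wild type for each of the 32 genes in tumor and in gland, with dotted lines at 2-fold. All points lie between -0.60 and 0.85, inside the 2-fold lines.

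The genotype difference in tumor minus that in gland was at most 1.29 in size, for Eif2ak2 at -1.29, so 0 of 32 genes were 4-fold apart in either direction, beside 0.299% of all genes upward and 0.565% downward (0.374% and 0.676% of those above the floor). It was positive for 12 of 32, against 47.2% of all genes, with a median of -0.11, against -0.03 over all genes. Ifit3 (-0.91), Irf7 (-0.73) and Zbp1 (-0.50) followed Eif2ak2 at the negative end. Gbp3 (0.56) and Oas2 (0.54) were at the positive end.

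**Figure D4:**
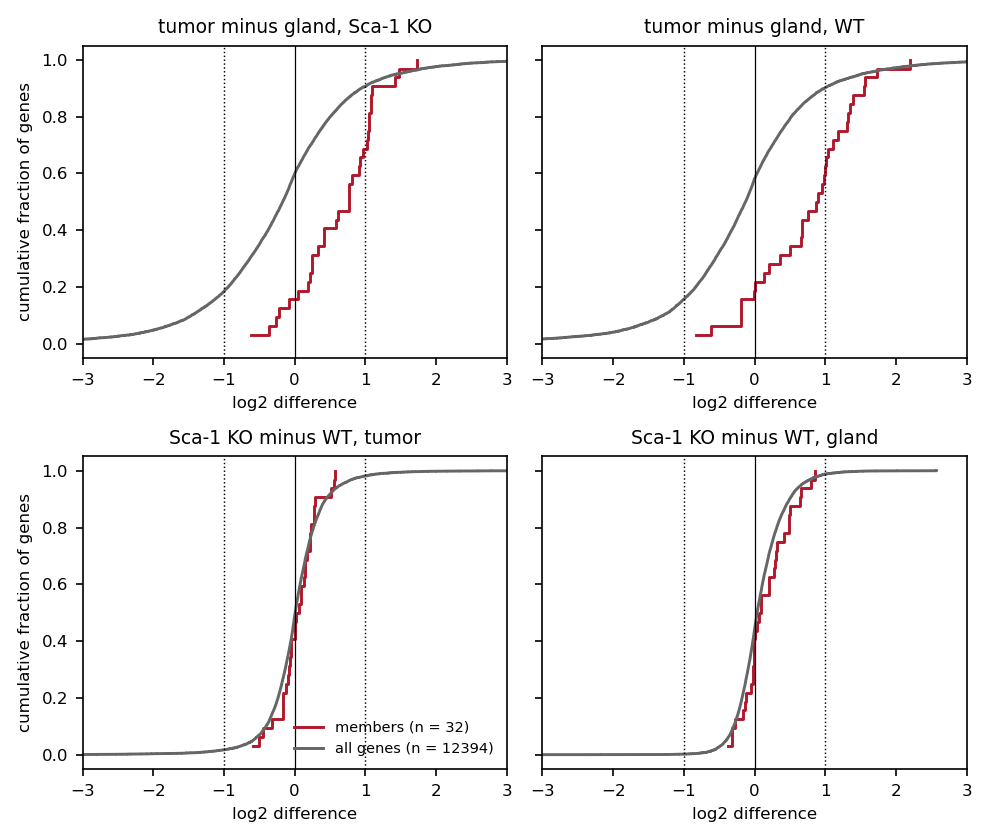
Cumulative fraction of the 32 genes and of all 12394 genes by log2 difference in each of the 4 comparisons, with dotted lines at 2-fold. The curve of the 32 genes lies to the right of that of all genes over most of its range in both comparisons of tumor with gland and close to it in both comparisons of genotypes.

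The other parts of the pathway were read from lists of genes named for their role. Of 19 interferon genes, 10 had a probe set of their own and all were below the floor on every array, between 0.4 and 65.0, so no level of theirs is read here. Ifnb1 (interferon beta) had signals of 9.6 and 9.1 in the knockout and wild-type tumor and 52.8 and 42.1 in the knockout and wild-type gland, and Ifng (interferon gamma) had 5.9 and 8.1 in the tumors and 10.9 and 14.3 in the glands. Ifna1, Ifna2, Ifna4, Ifna5, Ifna9, Ifna11, Ifnab and Ifnz were in the same range, and differences among such values are not read.

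Of 10 receptor and kinase genes 8 were measured. Among all genes, 9.36% were higher and 18.4% lower in tumor in knockout, and 9.88% and 15.7% in wild type. In knockout 0 of the 8 were higher and 2 lower in tumor, Ifngr1 at -1.08 and Tyk2 at -1.02, and in wild type 1 was higher and 0 lower. The higher one was Ifngr2, the signalling chain of the interferon gamma receptor, with 522 and 831 in the knockout and wild-type tumor and 329 and 159 in the knockout and wild-type gland. The binding chain Ifngr1 had 750 and 1053 in the knockout and wild-type tumor and 1618 and 1669 in the knockout and wild-type gland, so the 2 chains went in opposite directions between tissues. Ifnar1 had 369 and 371 in the knockout and wild-type tumor and 398 and 320 in the glands, and Ifnar2 1071 and 1370 in the tumors and 812 and 1041 in the glands. Between genotypes none of the 8 was past 2-fold in either tissue. Jak1 differed by -0.13 in tumor and 0.72 in gland, and Jak2 and Il10rb by no more than 0.28 in size.

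Among 10 regulators, Socs3, an inhibitor of cytokine receptors, was 3.61-fold higher in tumor in knockout and 2.54-fold in wild type, and Ptpn6, a phosphatase of leukocytes, was lower in both, at -1.73 and -1.28. Irf8, a factor of B and myeloid cells, was 2.15-fold brighter in the knockout than in the wild-type gland, with 856 and 384, and Ptpn6 differed by 1.05 there. Of the 9 measured genes of upstream sensing none was higher in tumor, and Tlr9, below the floor on all arrays, was the 1 lower gene in each genotype. The shares of all genes were 9.36% higher and 18.4% lower in knockout, and 9.88% and 15.7% in wild type. Sting1 differed between genotypes by -0.02 in tumor and 0.73 in gland.

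A wider list of type I genes did not lie as the members did. Of its 33 measured genes, 2 were higher and 8 lower in tumor in knockout, with a median of -0.28, and 3 were higher and 2 lower in wild type, with a median of 0.07. Among all genes 9.36% were higher and 18.4% lower in knockout, with a median of -0.17. In wild type those shares were 9.88% and 15.7%, with a median of -0.13. Oas1a (1957 and 1279 in the knockout and wild-type tumor, 764 and 663 in the knockout and wild-type gland) and Nmi (1586 and 1647, then 663 and 594) were among the brighter in tumor. Ifi27l2a, Plac8, Pml and Sp110 were dimmer, for example Pml, the organiser of nuclear bodies, with 164 and 123 in the knockout and wild-type tumor and 490 and 245 in the knockout and wild-type gland. Between genotypes 2 of 33 were higher in the knockout gland, Oas1b at 1.20 and Sp110 at 1.13, beside 1.19% of all genes. Both were above the floor in the knockout gland alone, at 228 and 205, against 84 and 78.7 in the wild-type gland. In the tumors 0 of 33 were higher or lower, beside 1.84% and 1.8% of all genes.

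Of 24 further genes induced by interferon gamma, 7 were higher and 5 lower in tumor in knockout, and 6 were higher and 3 lower in wild type, with medians of 0.42 and 0.18. Among all genes 9.36% were higher and 18.4% lower in knockout, and 9.88% and 15.7% in wild type, with medians of -0.17 and -0.13. The chemokine Cxcl10 had 854 and 428 in the knockout and wild-type tumor and 168 and 86.3 in the knockout and wild-type gland, 4.50-fold and 4.01-fold in knockout and wild type. Aif1, which is also on the list of macrophage markers, had log2 differences of 1.39 and 2.01 in knockout and wild type, and Ifi30 1.18 and 1.93. The immunoproteasome subunit Psmb9 was higher by 3.12-fold and 2.26-fold in knockout and wild type. Tap1, a peptide transporter chosen after its values were seen, was at 2.57-fold and 1.92-fold, but at -0.0462 on the log2 scale in knockout with the mean of its probe sets. The related Psmb10 (1.22-fold and 1.64-fold) and Tap2 (1.67-fold and 1.47-fold), chosen likewise, did not reach 2-fold. Ido1, the tryptophan-degrading enzyme, was dimmer in tumor, and most so in knockout. Its signals were 208 in the knockout tumor against 2164 in the wild-type tumor, and 3146 and 4018 in the knockout and wild-type gland, which made it 9.33-fold lower in the knockout tumor than in the wild-type tumor. It was the 1 gene of the 24 past 2-fold between the tumors, where 1.8% of all genes were lower and 1.84% higher in knockout. Between the glands Ccl5 was the 1 gene past 2-fold, at 1.18 on the log2 scale, where 1.19% of all genes were higher in knockout.

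Markers of the cells in these tissues moved between the same arrays, and in bulk RNA fewer cells of a type and less RNA per cell cannot be told apart. All 8 measured adipocyte markers were lower in tumor in both genotypes, with summed signals of 2995 and 4410 in the knockout and wild-type tumor and 43747 and 46008 in the knockout and wild-type gland. T and NK cell markers were lower for 12 of 16 genes in knockout and 8 of 16 in wild type, with sums of 1295 and 1246 in the tumors and 4659 and 2901 in the glands. In each tumor 2 of these 16 genes were above the floor. B cell markers were lower for 11 of 13 in knockout and 10 of 13 in wild type. The shares of all genes that were lower in tumor were 18.4% in knockout and 15.7% in wild type. Of the 32 listed genes, 26 were brighter in tumor in both genotypes, and the part of lymphocytes in this was not tested.

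Macrophage markers had a median difference of 0.15 in knockout and 1.01 in wild type. In knockout 2 of 13 were higher and 3 lower in tumor, and in wild type 7 of 13 were higher and 2 lower. Among all genes 9.36% were higher and 18.4% lower in knockout, and 9.88% and 15.7% in wild type. Luminal epithelial markers had medians of 0.90 and 0.60, with 4 of 10 and 1 of 10 higher and sums of 48256 and 43330 in the knockout and wild-type tumor and 23178 and 28710 in the knockout and wild-type gland. Keratinocyte markers had medians of 0.15 in knockout and 3.20 in wild type. Endothelial markers were negative for 10 of 10 in both genotypes. Fibroblast markers had medians of -1.07 and -0.93, plasmacytoid dendritic cell markers, a list that also holds Bst2 and Irf7, -0.98 and -1.35, and the control genes 0.40 and 0.31. In the knockout gland against the wild-type gland, all 16 T and NK cell, all 13 B cell and all 13 macrophage markers were positive. Of all genes 55.8% were. The marker medians were 0.66, 1.38 and 0.42, beside the 0.08 of the interferon-stimulated genes. In the wild-type gland 5 of the 16, 8 of the 13 and 10 of the 13 were above the floor. The marker medians were not recomputed with a common array median. Between the knockout and wild-type tumors, keratinocyte markers had a median of -2.97, with 6 of 10 lower in knockout, beside 1.8% of all genes. Macrophage and fibroblast markers had medians of -0.37 and -0.58, and T and NK cell, B cell and luminal markers 0.09, 0.28 and 0.19. The part of any of these in the differences of the interferon-stimulated genes, Ido1 among them, was not tested.

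**Figure D5:**
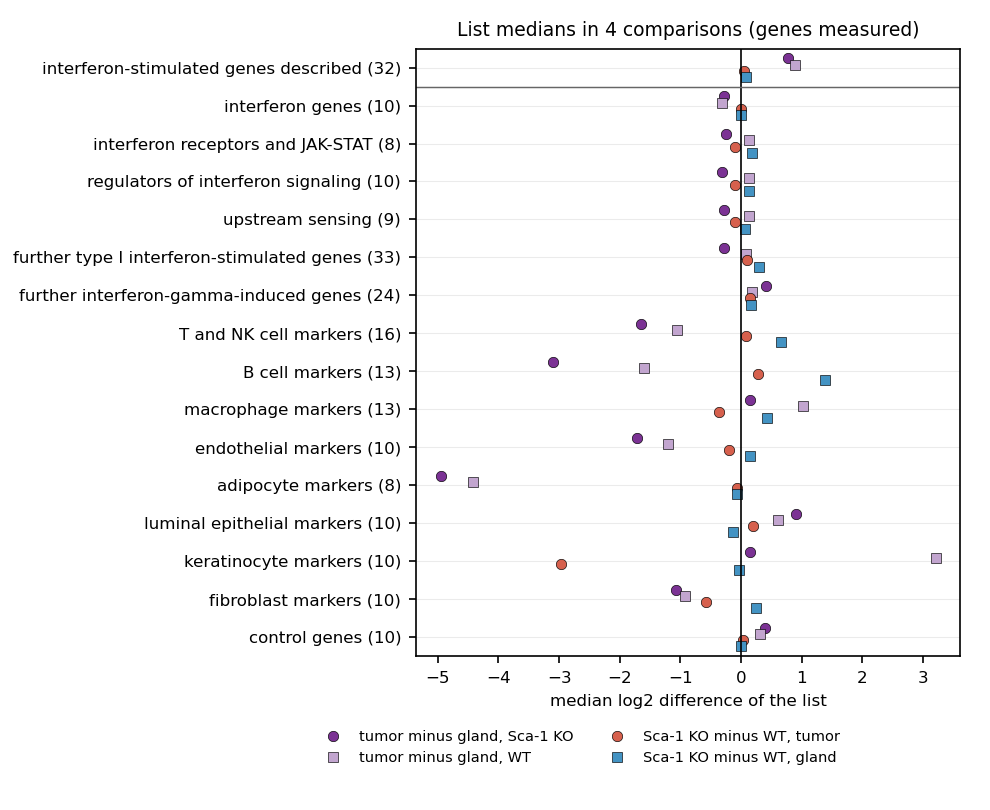
Median log2 difference of the 32 interferon-stimulated genes and of the lists of pathway genes, cell type markers and control genes in the 4 comparisons, with the number of genes measured in brackets. The list of plasmacytoid dendritic cell markers is not shown. The 32 genes lie at 0.76 and 0.88 for tumor against gland, while adipocyte, B cell, T and NK cell and endothelial markers lie below 0 there.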

How the data were processed

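The authors deposited a table of linear intensity covering 22690 probe sets and 4 arrays. Per the labels' protocols, biotin-labelled cRNA was made from RNA pooled from 5 mice per group. Which software made the signals was not given in the sources used here. In the file, the mean without the lowest and highest 2% was 500 on each array. Probe sets were named from the platform annotation and 20364 symbols were updated by gene identifier. Probe sets with several symbols (691) or none (1606) were left out. For each gene the probe set of highest mean was used, on log2(signal + 27.3), where 27.3 is the lower quartile of all values. The floor, on the highest of the 4 values, left 8283 of 12394 genes. There was no test, so p-values are not given, and precision is limited by having 1 array per group. The 36 genes and the lists were chosen with earlier results of these data known. The 32 measured genes are described, and from the other lists the interferon genes, the receptors and kinases, and genes among the 3 largest differences of a list in a comparison. Tap1, Tap2 and Psmb10 were named after their values were seen. Counting was tested on simulated data. Motifs were searched in 32851 RefSeq promoter windows. Python 3.11.15 with pandas 2.3.3 and limma 3.58.1 (alternative scalings) were used, with 9 alternatives.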

Additional observations from a re-analysis of the deposited data

Results flagged for a closer look

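Among the members and pathway genes above the floor on their brightest array, 3 had genotype differences of opposite direction in tumor and gland. These were each at least 0.26 in size and at least 1 apart on the log2 scale. With 1 array per group the difference was not tested. Sp110 passed the floor through the knockout gland alone and Eif2ak2 through the tumors alone. Ifngr2 was below it in the wild-type gland, at 159. Each of the 3 differences thus includes at least 1 signal below the floor. Eif2ak2 differed by -0.44 in tumor and 0.85 in gland, a difference of -1.29, but its second probe set gave 0.07 in tumor and 0.33 in gland, the same direction in both. Ifngr2 differed by -0.64 in tumor and 0.94 in gland, a difference of -1.58. Sp110, a nuclear body protein of the wider type I list, differed by -0.57 in tumor and 1.13 in gland, a difference of -1.70, with signals of 16.1 and 37.3 in the knockout and wild-type tumor and 205 and 78.7 in the knockout and wild-type gland.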

How the results depend on the processing

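No paired analysis was possible because each group has 1 array. Over the genes above the floor, the number of members higher in tumor in knockout was 9, and it was 16 with arrays brought to a common median and 3 with the median of all values as offset. In wild type the number was 12, with 8 to 16 over the alternatives. With an offset of 1, the number lower in tumor in wild type was 1 in place of 0, and the number higher in the knockout gland 1 in place of 0. The median difference of tumor from gland stayed between 0.61 and 1.13 in knockout and between 0.73 and 1.02 in wild type. With a common array median, the median of all genes for tumor against gland in knockout was 0.34 in place of -0.04, and the members stood 0.79 above it, against 0.80. All genes then split into 21.2% higher and 12.3% lower there, in place of 12.4% and 17.9%, and in the knockout against the wild-type gland into 0.521% and 0.448%, in place of 1.11% and 0.254%. The members' median for the genotype difference in tumor minus that in gland then changed sign, to 0.14. Past 2-fold under every alternative were Usp18, Bst2 and Rtp4 in knockout, and Ifit2, Ifit3, Usp18, Igtp, Bst2, Eif2ak2, Zbp1 and Rtp4 in wild type. With the mean of all probe sets of a gene, the tumor differences in knockout turned to -0.1446 for Dhx58 and -0.0462 for Tap1, since their other probe sets are averaged in. Leaving out probe sets named _s_at, _x_at or _a_at removed 8 of the 30 genes, Irf1, Irf7 and Irf9 among them. Depth of an array cannot be counted, and dim signals such as those of Mx1, Mx2, Stat2 and the interferon genes limit what can be read.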
